A study of Mus musculus with 12 samples.

Results

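The precursors of 10 hypothalamic neuropeptides, *Hcrt*, *Pmch*, *Oxt*, *Avp*, *Trh*, *Crh*, *Nts*, *Penk*, *Tac1* and *Adcyap1*, were read in every library of an arcuate nucleus (ARC) transcriptome. They were chosen by name, and each of the 10 matched 1 of the 38283 genes listed. The ARC of male C57BL/6 mice, young adults fed ad libitum, was cut from 14 μm frozen brain sections by laser capture, and its RNA was amplified and sequenced. The 5 wild-type (WT) mice were set against 7 mice homozygous for an R299Q substitution in the γ2 subunit of AMPK (Homo), with 1 library per mouse. The substitution was placed in the mouse gene *Prkag2* by gene targeting and is carried by every tissue, so it is not confined to ARC neurons. *Prkag2* was at 7.73 to 24.0 FPKM over the 12 libraries, and since a single amino acid change need not alter its level, this checks no label.

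Hypothalamic neuropeptides are cut from larger precursors, and many precursors are made in particular nuclei, so their transcripts can bear on which neighbours of the ARC a dissection held. Oxytocin and vasopressin have large (magnocellular) neurons of the paraventricular and supraoptic nuclei among their sources. The axons of these neurons pass through the median eminence beneath the ARC to the posterior pituitary. Orexin and melanin-concentrating hormone come from neurons of the lateral hypothalamus. Small neurons of the paraventricular nucleus are among the sources of thyrotropin-releasing and corticotropin-releasing hormone. Enkephalins, tachykinins, neurotensin and PACAP are made widely, with ARC, ventromedial and dorsomedial neurons among their sources.

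Levels are in FPKM, which scale the fragments of a gene to its length and to the depth of the library, so genes can be compared per length. The libraries formed 2 sets by the number of genes listed above 0. WT 1, WT 2 and Homo 1 to 5 had 15742 to 16467 such genes, and WT 3 to 5, Homo 6 and Homo 7 had 18141 to 18635. No label names these sets as a batch, and differences between genotypes are also given within each. The defining ARC transcripts were high in all 12 libraries, with *Agrp* at 181 to 597 FPKM, *Npy* at 514 to 1795 FPKM and *Pomc* at 189.7 to 1350.2 FPKM. Each was lowest in WT 3. There the ARC marker list summed to 1377 FPKM, against 2442 FPKM in WT 4, the next lowest, and 5282 FPKM in Homo 5, the highest. Of 47 marker genes listed for other hypothalamic nuclei, thalamus and striatum, 11 stayed below 1 FPKM in every library, among them *Nr5a1* of the ventromedial nucleus (at most 0.315 FPKM), *Sim1* of the paraventricular and supraoptic nuclei (at most 0.292 FPKM) and *Lhx9* of the lateral hypothalamus (at most 0.357 FPKM). In contrast 14 were at 1 FPKM or more in every library, among them *Scg2* of the lateral hypothalamic list (195.7 to 462 FPKM), *Tcf7l2* of the thalamic list (8.63 to 38.1 FPKM) and *Rgs9* of the striatal list (9.16 to 27.5 FPKM). The pituitary transcript *Gh* reached 54.5 FPKM in Homo 7, 61.5 FPKM in WT 3 and 64.5 FPKM in WT 5, with at most 0.139 FPKM in the other libraries.

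**Figure D1:**
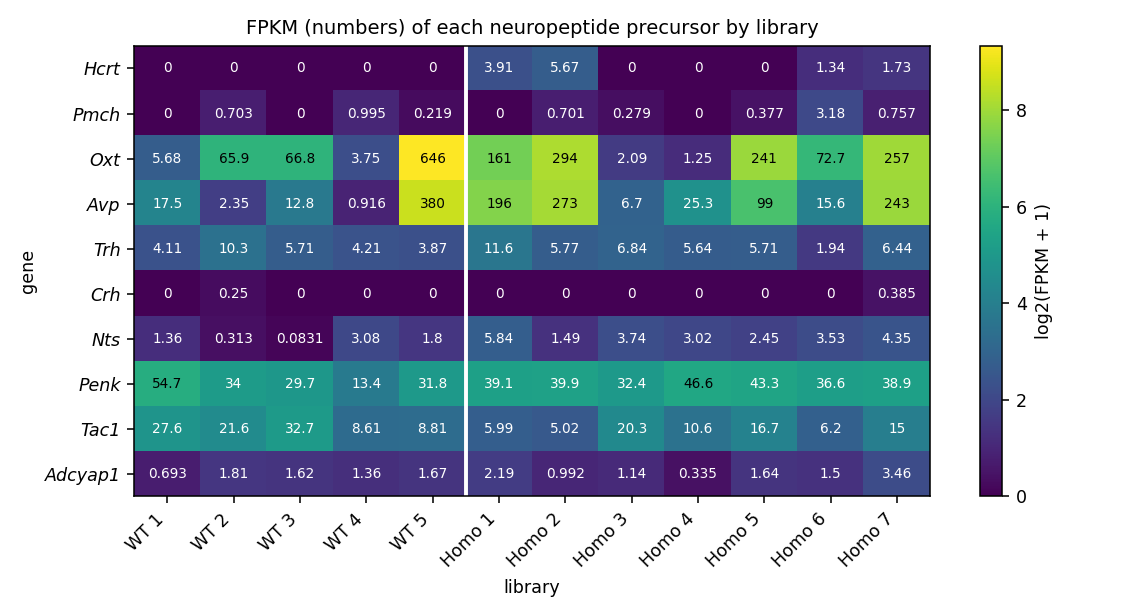
FPKM of the 10 precursors (rows) in the 12 libraries (columns, WT left of the white line and Homo right of it), with colour giving log2(FPKM + 1). *Penk* stayed between 13.4 and 54.7 FPKM, while *Oxt* ran from 1.25 to 646 FPKM and *Hcrt* was listed above 0 in Homo 1, 2, 6 and 7 only.

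By median over the 12 libraries the levels fell in the order *Oxt* (69.7 FPKM), *Penk* (37.7), *Avp* (21.4), *Tac1* (12.8), *Trh* (5.71), *Nts* (2.73), *Adcyap1* (1.56), *Pmch* (0.328), then *Hcrt* and *Crh* (both 0). Neighbours in this order were compared within libraries by an exact two-sided permutation of signs on log2(FPKM + 1), with Benjamini-Hochberg adjustment over the 9 comparisons. The order came from the same 12 libraries, so these p-values are descriptive and no independent support for it. *Tac1* lay above *Trh* in 10 of 12 libraries (exact p = 0.00439, adjusted 0.0132), *Trh* above *Nts* in 11 (exact p = 0.00195, adjusted 0.0132) and *Adcyap1* above *Pmch* in 11 (exact p = 0.00439, adjusted 0.0132). The other 6 neighbours did not differ beyond their spread. *Oxt*, *Penk*, *Avp* and *Tac1* changed places from library to library, with *Oxt* above *Penk* in 8 of 12.

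The magnocellular pair varied most. *Oxt*, the oxytocin precursor gene, lies at chr2:130576173-130577054 on the plus strand (GRCm38, GENCODE M21), and *Avp*, the vasopressin precursor gene, at chr2:130580620-130582554 on the minus strand, 3565 bases away and facing it. Each has 3 exons, and each precursor carries its hormone together with a neurophysin, the carrier protein with which it is stored. The 375 coding bases of *Oxt* aligned to *Avp* with 85.9% identity. The stretch below is shown because fragments from it can hardly be told apart between the genes. It covers 150 coding bases across exons 1 and 2, of which 148 were identical, with the differing bases in capitals and 127 bases in 1 unbroken identical run. The *Oxt* stretch spans chr2:130576328-130576738 and the *Avp* stretch chr2:130581110-130582411, introns included, and both are written 5′ to 3′ along their own gene.
*Oxt*: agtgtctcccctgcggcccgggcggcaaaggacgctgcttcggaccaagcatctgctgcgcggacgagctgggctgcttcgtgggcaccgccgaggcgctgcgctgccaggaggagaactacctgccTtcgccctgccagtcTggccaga
*Avp*: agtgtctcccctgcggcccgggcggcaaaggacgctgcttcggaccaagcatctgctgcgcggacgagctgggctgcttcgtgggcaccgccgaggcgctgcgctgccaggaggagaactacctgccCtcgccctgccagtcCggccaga
The amplified cDNA was sheared to about 200 bp, so a fragment can lie largely within this stretch. How such fragments were shared out between the genes in the deposited values was not tested, and both genes' FPKM carry that uncertainty.

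*Oxt* was at 5.68, 65.9, 66.8, 3.75 and 646 FPKM in WT 1 to 5, a mean of 158 ± 275 (SD, n = 5). In Homo 1 to 7 it was at 161, 294, 2.09, 1.25, 241, 72.7 and 257 FPKM, a mean of 147 ± 123 (SD, n = 7). Both genotypes held libraries with almost no *Oxt* and libraries rich in it, so the groups overlapped over most of their range. From the lowest library, Homo 4, to the highest, WT 5, the level rose 518-fold. Within the libraries *Oxt* ranked between the 106th most abundant gene (WT 5) and the 12222nd (Homo 4).

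*Avp* was at 17.5, 2.35, 12.8, 0.916 and 380.0 FPKM in WT 1 to 5 (mean 82.7 ± 166, SD, n = 5). In Homo 1 to 7 it was at 196, 273, 6.70, 25.3, 99.0, 15.6 and 243 FPKM (mean 123 ± 114, SD, n = 7). WT 5 was the highest and WT 4 the lowest, a 415-fold range within WT, and 6 of 7 Homo libraries exceeded the WT median. The SD of log2(FPKM + 1) over the 12 libraries was 2.87 for *Oxt* and 2.61 for *Avp*, against a median of 0.52 and a 95th percentile of 1.79 over the 14017 genes tested. Among genes with a mean FPKM within 2-fold of their own, *Oxt* exceeded 87.6% of 652 and *Avp* 88.0% of 941 in this SD.

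WT 5, Homo 1, Homo 2, Homo 5 and Homo 7 were high in both genes, with *Avp* at 99.0 FPKM or more and *Oxt* at 161 FPKM or more. In these 5 libraries the ratio of *Oxt* to *Avp* lay between 0.825 and 2.44. In the other 7 it ran from 0.0493 in Homo 4 to 28.1 in WT 2, so the pair could part widely in spite of the shared sequence. Over the 12 libraries the correlation of log2(FPKM + 1) was r = 0.723 (permutation p = 0.0104, adjusted 0.266 over 45 pairs of precursors) and rho = 0.776 (permutation p = 0.00406, adjusted 0.183), and r was 0.812 without Homo 3 and Homo 4. Within the 7 libraries with fewer genes above 0 it was r = 0.615 (exact permutation p = 0.141).

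**Figure D2:**
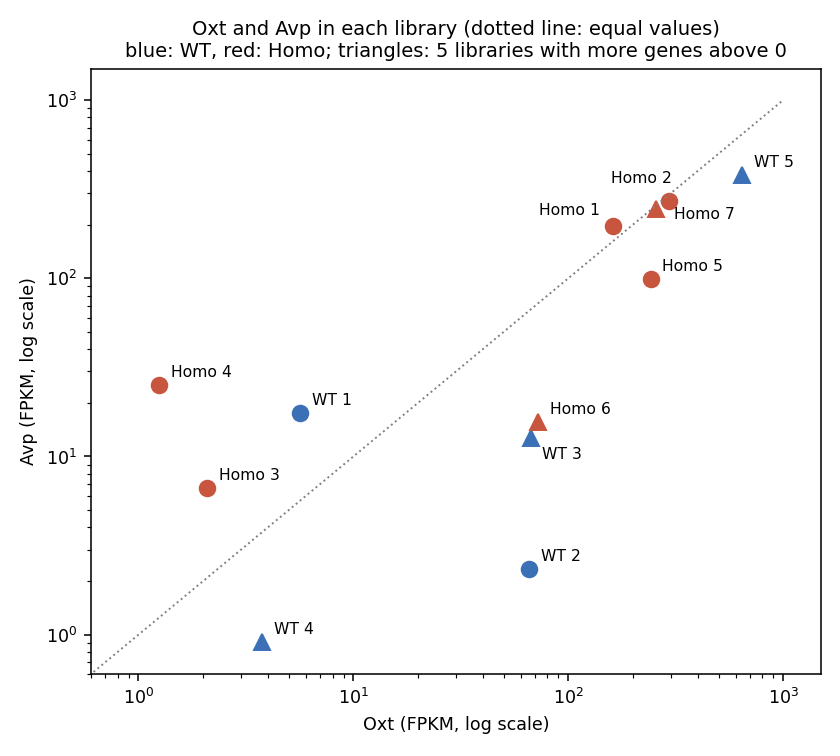
*Oxt* (x axis) against *Avp* (y axis) in FPKM on log scales, 1 point per library, with WT in blue, Homo in red, triangles for the 5 libraries with more genes above 0 and a dotted line at equal values. WT 5, Homo 1, 2, 5 and 7 sit together at the upper right, while WT 2 (*Oxt* 65.9, *Avp* 2.35) and Homo 4 (*Oxt* 1.25, *Avp* 25.3) lie far from the line on opposite sides.

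The marker genes of the paraventricular and supraoptic nuclei differed in their spread. The summed level of that list of 8 genes ranged over 26.5 to 38.8 FPKM for WT and 22.3 to 35.2 FPKM for Homo. *Sim1*, needed for these neurons to form, stood at 0.292 FPKM in WT 5, against 0.0501 FPKM in Homo 7, was listed at 0 in 6 libraries and was at most 0.0264 FPKM elsewhere. *Otp*, a factor also made in ARC neurons, gave much of the sum, at 7.40 to 22.1 FPKM. *Caprin2*, an RNA-binding protein gene, ran from 0.213 to 4.58 FPKM and *Pou3f2*, a transcription factor gene, from 0.0496 to 1.27 FPKM. Both were lowest in Homo 4 and highest in WT 5, as was *Oxt*. Apart from *Sim1*, the other genes of the list were not highest in WT 5. *Otp* was highest in Homo 7, *Fam167a* in WT 4, *Cacna2d3* in WT 1, *Calr3* in WT 2 and *Brs3* in Homo 5. The mean log2(FPKM + 1) of the list correlated with *Oxt* at r = 0.386 (permutation p = 0.215) and rho = 0.273 (permutation p = 0.393), and with *Avp* at r = 0.0561 (permutation p = 0.862) and rho = 0.0070 (permutation p = 0.991), all with adjusted p of at least 0.705. Without WT 5 and Homo 4, farthest from the median of the list, r was −0.12 and −0.30. In bulk tissue more cells of a type and more RNA per cell cannot be told apart.

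Oligodendrocyte markers tended to be high in the libraries rich in the hormones, short of adjusted significance, in a list from which 1 marker was dropped after the values were known. The summed level of *Mbp*, *Mog*, *Mag*, *Mobp* and *Cnp*, genes of myelin and its makers, ranged over 70.9 to 443 FPKM for WT and 127 to 309.8 FPKM for Homo, lowest in WT 4 and highest in WT 5. All 5 were higher in Homo on average, with unadjusted limma p of at least 0.133 each, and *Mog* was listed at 0 in WT 2. The mean log2(FPKM + 1) of the list correlated with *Avp* at r = 0.826 (permutation p = 0.00067) and rho = 0.741 (permutation p = 0.00763), and with *Oxt* at r = 0.666 (permutation p = 0.0181) and rho = 0.769 (permutation p = 0.00501). Over the 128 relations of 8 precursors with 16 marker lists no adjusted p fell below 0.05, and these 4 had adjusted p of 0.0858 (*Avp*) and 0.387 (*Oxt*) for r and 0.239 for both rho. The *Avp* relation passed for r without Homo 2 (r = 0.888, permutation adjusted p = 0.0307) or Homo 6 (r = 0.869, permutation adjusted p = 0.0269), and its adjusted p rose to 0.479 without WT 4. Without WT 4 and WT 5, the libraries farthest from the median of the list, r was 0.690 for *Avp* and 0.492 for *Oxt*, and within the 7 libraries with fewer genes above 0 it was 0.839 and 0.358. Astrocyte markers gave rho = 0.706 for *Oxt* (permutation p = 0.0128, adjusted 0.246) and 0.671 for *Avp* (permutation p = 0.0203, adjusted 0.325). Their r was 0.558 (permutation p = 0.0608, adjusted 0.619) and 0.625 (permutation p = 0.0314, adjusted 0.574). The oligodendrocyte mean of WT 3 (4.14) and Homo 6 (4.32), poorer in both hormones, exceeded that of Homo 1 (4.07) and Homo 2 (3.96). *Gh* was high in WT 5 and Homo 7, which were rich in the hormones, but also in WT 3, which had 12.8 FPKM of *Avp*. The part of these transcripts in the spread of *Oxt* and *Avp* was not tested.

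**Figure D3:**
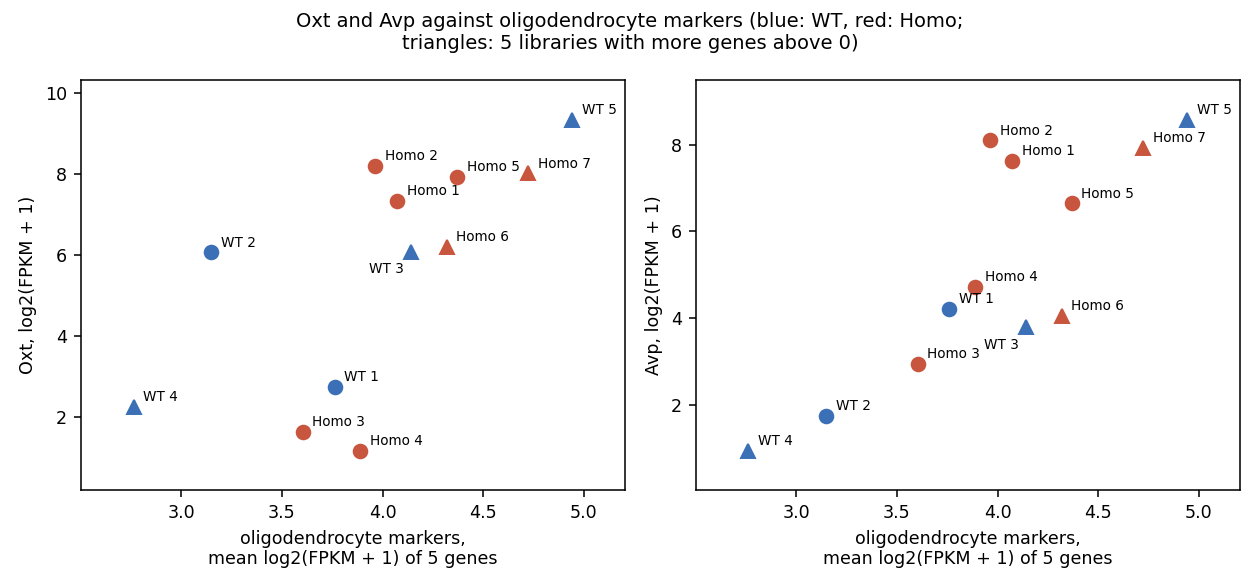
*Oxt* (left) and *Avp* (right), as log2(FPKM + 1), against the mean log2(FPKM + 1) of 5 oligodendrocyte markers, 1 point per library, with WT in blue, Homo in red and triangles for the 5 libraries with more genes above 0. WT 4 lies low on both axes and WT 5 and Homo 7 high, with r = 0.666 for *Oxt* and 0.826 for *Avp*.

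The lateral hypothalamic peptides were scarce. *Hcrt*, the precursor of the orexins, which promote wakefulness and feeding, lies at chr11:100761069-100762931 (minus strand, 2 exons). It was listed at 0 in all 5 WT libraries and in Homo 3, 4 and 5. It was at 3.91, 5.67, 1.34 and 1.73 FPKM in Homo 1, 2, 6 and 7. Thus 4 of 7 Homo libraries and 0 of 5 WT libraries listed it above 0. *mt-Rnr1* and *mt-Rnr2*, which give every cell its mitochondrial ribosomal RNA, were also listed at 0 in all 12 libraries, so a 0 says only that a gene is listed at 0. The steps between low values were sharper in the 5 libraries with more genes above 0, with 44.3 to 62.8% of values on a step. In the others 23.5 to 41.2% were, with 20% given by chance. Homo 4 of the latter (41.2%) lay close to WT 3 of the former (44.3%), so the sets differ in degree. From these steps 1 fragment on *Hcrt* was worth about 0.208 to 0.303 FPKM in those 5 libraries. On that scale Homo 6 and Homo 7 held about 6.4 and 8.2 fragments, and the zeros of WT 3, 4 and 5, read as counts of 0, allow up to 0.639, 0.672 and 0.909 FPKM, the worth of 3 fragments. These limits cover counting error only, since amplified fragments are not independent molecules. In WT 1 and WT 2, the only WT libraries of the set that held Homo 1 and Homo 2, the steps were not clear and no limit is given.

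*Pmch*, the precursor of melanin-concentrating hormone, which promotes feeding, lies at chr10:88091072-88092375 (plus strand, 3 exons). It was at 0, 0.703, 0, 0.995 and 0.219 FPKM in WT 1 to 5. In Homo 1 to 7 it was at 0, 0.701, 0.279, 0, 0.377, 3.18 and 0.757 FPKM. Homo 6 stood above the rest and the genotypes overlapped otherwise. The gene overlaps *Parpbp* on the opposite strand. The amplification kit does not mark strand, so reads of the pair cannot be told apart by strand. *Parpbp* was also highest in Homo 6, at 1.76 FPKM against at most 0.634 FPKM elsewhere. Homo 1 held 3.91 FPKM of *Hcrt* and listed *Pmch* at 0, and r between the genes was 0.241 (permutation p = 0.451), or 0.671 without Homo 1 and Homo 2. The list of 7 lateral hypothalamic markers summed to 229 to 323 FPKM for WT and 203 to 477 FPKM for Homo, nearly all of it *Scg2*. Within it *Zic1*, a transcription factor with other forebrain sources too, averaged 1.74 ± 2.75 FPKM over WT and 8.19 ± 5.39 FPKM over Homo libraries (± SD), with a limma adjusted p of 0.839.

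Of the peptides grouped as parvocellular *Trh* was low and even, and *Crh* was listed at 0 in most libraries. The values do not show which neurons made the *Trh*. *Trh*, the thyrotropin-releasing hormone precursor gene (chr6:92242061-92244650, minus strand, 3 exons), was at 4.11, 10.3, 5.71, 4.21 and 3.87 FPKM in WT 1 to 5 (mean 5.65 ± 2.71, SD, n = 5). In Homo 1 to 7 it was at 11.6, 5.77, 6.84, 5.64, 5.71, 1.94 and 6.44 FPKM (mean 6.28 ± 2.85, SD, n = 7). Most libraries of both genotypes lay between 3.87 and 6.84 FPKM, with WT 2 and Homo 1 above and Homo 6 below. *Crh*, which drives pituitary release of corticotropin (chr3:19693401-19695396, minus strand, 2 exons), was at 0.250 FPKM in WT 2, 0.385 FPKM in Homo 7 and listed at 0 in the other 10 libraries. In Homo 7 that value was about 5.1 fragments. Homo 7 was rich in *Oxt* and *Avp* too, whereas the other 4 libraries rich in both listed *Crh* at 0. *Trh* correlated with neither hormone past adjustment.

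*Penk* was the steadiest of the abundant precursors. It encodes the enkephalins, opioid peptides, and lies at chr4:4133531-4138819 (minus strand, 2 exons). It was at 54.7, 34.0, 29.7, 13.4 and 31.8 FPKM in WT 1 to 5 and at 39.1, 39.9, 32.4, 46.6, 43.3, 36.6 and 38.9 FPKM in Homo 1 to 7. The Homo libraries lay close together, inside the range of the WT libraries, with an SD of log2(FPKM + 1) of 0.16 against 0.70 in WT. The overlapping antisense gene *A830012C17Rik* was at most 1.37 FPKM.

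*Tac1*, the precursor of substance P and neurokinin A (chr6:7554879-7565834, plus strand), was at 27.6, 21.6, 32.7, 8.61 and 8.81 FPKM in WT 1 to 5. In Homo 1 to 7 it was at 5.99, 5.02, 20.3, 10.6, 16.7, 6.20 and 15.0 FPKM. No Homo library reached the WT median and 3 lay below the lowest WT library, while the others overlapped. The 3 libraries lowest in *Tac1*, Homo 1, 2 and 6, were among the 4 that held *Hcrt*, and its correlation with *Hcrt* was r = −0.67 (permutation p = 0.0177, adjusted 0.266) and rho = −0.69 (permutation p = 0.0151, adjusted 0.34). Without Homo 1 and Homo 2 r was −0.37. Within the 7 libraries with fewer genes above 0 it was −0.89 (exact permutation p = 0.0238). There *Hcrt* was above 0 in Homo 1 and Homo 2 alone, so r rests on them and the p is the smallest possible. *Hcrt* was listed at 0 in every WT library and *Tac1* averaged higher in WT. The correlation and the genotype difference were therefore not separated.

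*Nts*, the neurotensin precursor gene (chr10:102481756-102490486, minus strand, 4 exons), was at 1.36, 0.313, 0.0831, 3.08 and 1.80 FPKM in WT 1 to 5 and at 5.84, 1.49, 3.74, 3.02, 2.45, 3.53 and 4.35 FPKM in Homo 1 to 7. Each of the 7 Homo libraries exceeded the WT median, and 4 of them exceeded the highest WT library, WT 4. In the 5 libraries with the sharper steps, WT 3, 4 and 5 held about 1.0, 36.1 and 15.6 fragments of *Nts* and Homo 6 and 7 about 44.6 and 54.0.

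*Adcyap1*, the precursor of PACAP (chr17:93199017-93206537, plus strand), was at 0.693, 1.81, 1.62, 1.36 and 1.67 FPKM in WT 1 to 5 and at 2.19, 0.992, 1.14, 0.335, 1.64, 1.5 and 3.46 FPKM in Homo 1 to 7. The Homo libraries spread over the whole WT range and beyond it at both ends.

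**Figure D4:**
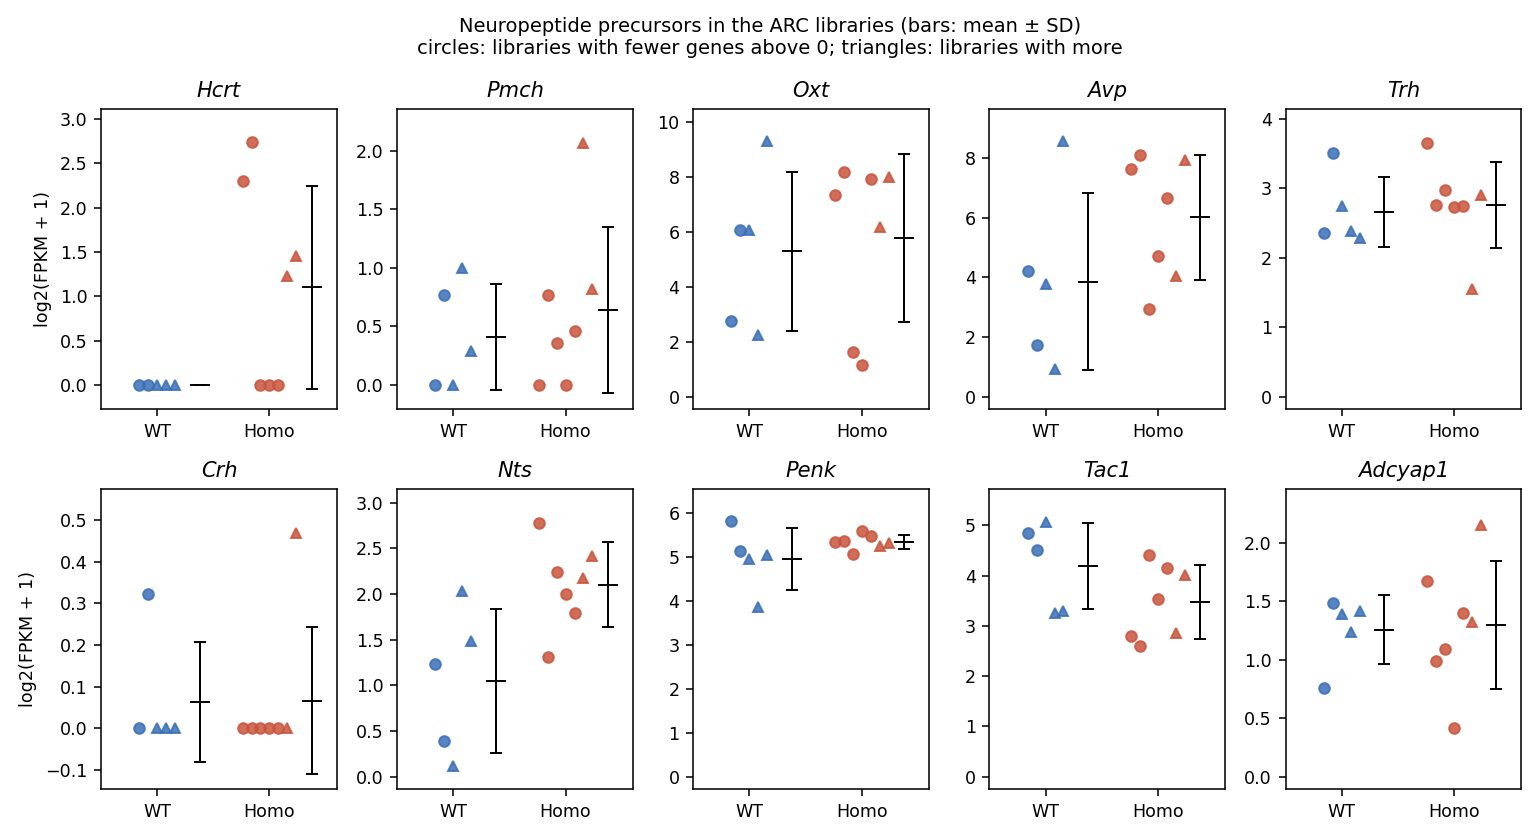
log2(FPKM + 1) of the 10 precursors in WT (blue) and Homo (red), 1 point per library, with triangles for the 5 libraries with more genes above 0 and black bars for the mean ± SD of each genotype. The genotypes overlapped for every gene, with *Nts* shifted up in Homo and *Penk* gathered near its mean.

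Whether the precursors differed between Homo and WT was tested with limma on log2(FPKM + 1) over the 14017 genes with a mean of at least 1 FPKM, with Benjamini-Hochberg adjustment over all of them. Of the 10 precursors 8 passed that filter, and *Pmch* and *Crh* did not. *Hcrt* passed it only through its Homo libraries. None of the 8 had a limma adjusted p below 0.05, as 0.00713% of all genes tested did, and 1, *Nts*, had an unadjusted p below 0.05, as did 5.55% of all genes tested in either direction and 3.05% in the direction of *Nts*. For no precursor were the genotypes free of overlap, and the share of all genes tested that were free of it was not counted. With *Hcrt* left aside, since that filter fixed its direction, 6 were higher and 1 was lower in Homo on average, as 49.3% of all genes tested were higher. Their median log2 difference was 0.382 against −0.01 over all genes tested.

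The mean of *Nts* was 1.33 ± 1.21 FPKM over the 5 WT libraries and 3.49 ± 1.39 FPKM over the 7 Homo libraries (± SD). The log2 difference was 1.05 ± 0.35 (SE), with limma p = 0.00934 and adjusted p = 0.783, while permuting the genotypes over the libraries (exact, two-sided, smallest possible p 0.0013) gave p = 0.0177. The 2 library sets gave differences of 1.21 (fewer genes above 0) and 1.09 (more). Without WT 3, the library lowest in ARC markers, the difference was 0.818 and the exact permutation p was 0.0424. With the 3 libraries high in *Gh* left out it was 0.831 and the exact permutation p was 0.0952, and with Homo 1 to 5 as the only Homo libraries it was 0.974 and the exact permutation p was 0.0635. Microglial markers were higher in Homo as well, all 6 of them on average, summing to 28.0 to 44.8 FPKM for WT and 41.7 to 71.8 FPKM for Homo, and *C1qa* and *Aif1* had unadjusted limma p below 0.05 (adjusted p = 0.763 and 0.870). Of all genes tested 3.05% had such an unadjusted p and were higher in Homo. The mean log2(FPKM + 1) of the microglial list correlated with *Nts* at r = 0.494 (permutation p = 0.106, adjusted 0.619). It was 0.197 without WT 1 and WT 3, farthest from the median of the list. For astrocyte markers r was 0.606 (permutation p = 0.0364, adjusted 0.582), and 0.176 without Homo 1 and WT 3. The part of either list in the difference in *Nts* was not tested.

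*Avp* had the widest difference, 2.15 ± 1.39 (log2, SE; limma adjusted p = 0.915, exact permutation p = 0.163), and *Oxt* differed by 0.49 ± 1.69 (adjusted p = 0.990, exact permutation p = 0.801). Without WT 5 the *Avp* difference was 3.33 with an exact permutation p of 0.0303, and without WT 4 it was 1.42. The sign of the *Oxt* difference turned without WT 1 (−0.15) or WT 4 (−0.27). *Hcrt* differed by 1.1 ± 0.56 (limma adjusted p = 0.901, exact permutation p = 0.116), a value set by the pseudocount since WT was listed at 0. The filter fixed its direction, so these p-values are a description and no test of it.

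*Tac1* was the lower one, with a mean of 19.9 ± 10.9 FPKM over 5 WT libraries against 11.4 ± 6.04 FPKM over 7 Homo libraries (± SD). Its log2 difference was −0.72 ± 0.41 (limma adjusted p = 0.908, exact permutation p = 0.153), and −1.17 (fewer genes above 0) and −0.45 (more) in the library sets. *Penk* differed by 0.38 ± 0.26 (adjusted p = 0.915, exact permutation p = 0.189), with −0.11 and 0.67 in the same order of sets. Without WT 1 it differed by 0.594 with an exact permutation p of 0.00606 but a limma adjusted p of 0.704, and without WT 4 by 0.106. *Trh* and *Adcyap1* differed by 0.11 ± 0.32 and 0.04 ± 0.31 (adjusted p = 0.988 and 0.994), and the sign of both turned in 1 library set.

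**Figure D5:**
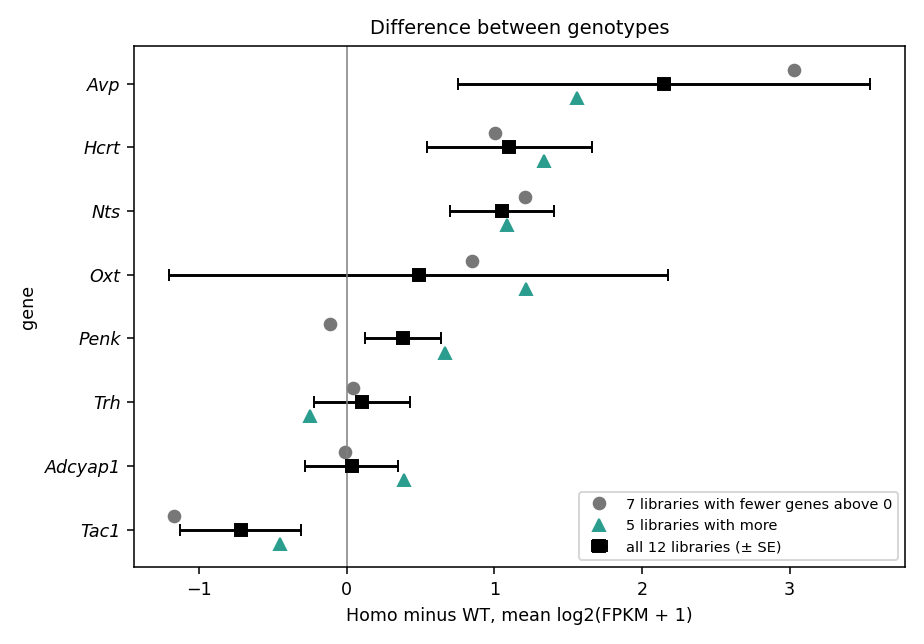
Difference between Homo and WT in mean log2(FPKM + 1) for the 8 precursors tested (black squares, ± SE), with the difference within the 7 libraries with fewer genes above 0 (grey circles) and the 5 with more (green triangles). *Nts* kept 1.21 and 1.09 in the sets, whereas *Penk*, *Trh* and *Adcyap1* lay on opposite sides of 0. The direction of *Hcrt* was fixed by the filter.

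Of the 20 receptor genes of these peptides 14 were tested, and 5 were higher and 9 lower in Homo, none with an unadjusted limma p below 0.05. *Vipr2* and *Hcrtr1*, both among the higher, passed the filter through their Homo libraries (mean 1.74 and 1.21 FPKM, against 0.381 and 0.890 FPKM over WT). The levels were highest for *Ntsr2*, a neurotensin receptor of astrocytes (31.9 to 95.6 FPKM), *Adcyap1r1*, the PACAP receptor (42.1 to 69.0 FPKM), and *Oprm1*, the μ opioid receptor (12.1 to 44.2 FPKM). *Oxtr*, the oxytocin receptor, was at 0.544 to 3.17 FPKM, and *Avpr2*, the renal vasopressin receptor, was listed at 0 in all 12. The 4 with the smallest unadjusted p were *Crhr2* (mean 4.78 ± 6.24 FPKM over WT against 1.46 ± 2.18 over Homo libraries, ± SD, limma adjusted p = 0.901), *Crhr1*, *Vipr2* and *Mchr1* (limma adjusted p = 0.915 each).

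Of 21 related precursor genes 14 were tested, with 12 higher and 2 lower in Homo. *Nms*, 1 of the 12, passed the filter through its Homo libraries (mean 1.51 FPKM, against 0.472 FPKM over WT). *Npy* and *Agrp*, peptides of ARC hunger neurons, had unadjusted limma p below 0.05 and adjusted p of 0.887 and 0.899. Both were higher in Homo, and 3.05% of all genes tested had such an unadjusted p in that direction. The mean of *Npy* was 1014.5 ± 390.4 FPKM over WT against 1472 ± 306 FPKM over Homo libraries (± SD), and that of *Agrp* 301 ± 128 against 445 ± 130.0 FPKM. *Grp* and *Pnoc* came next (limma adjusted p = 0.908 and 0.915). The suprachiasmatic peptide *Vip* was at 4.98 FPKM in Homo 2 and 2.27 FPKM in Homo 7, and at most 0.526 FPKM elsewhere. The mean log2(FPKM + 1) of the suprachiasmatic markers, *Vip* included, correlated with *Avp* at r = 0.677 (permutation p = 0.0150, adjusted 0.383). For rho it was 0.706 (permutation p = 0.0134, adjusted 0.246), and r was 0.518 without Homo 2 and Homo 7. With *Oxt* r was 0.425 (permutation p = 0.166, adjusted 0.673). Which neurons made the *Avp* was not tested.

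The genes tested whose log2(FPKM + 1) followed each precursor most closely over the 12 libraries are given as a description, since all share the libraries and their depth. They were *Cnksr2* (r = 0.953) and *Brox* (0.910) for *Oxt*, *Ddhd1* (0.936) and *Eif4a2* (0.908) for *Avp*, and *Gpr17* (0.910) and *Klhl5* (0.904) for *Hcrt*. For *Nts* they were *Nkx6-2* (0.892) and *A530017D24Rik* (0.868), for *Penk* *mt-Tr* (0.915) and *Mrps17* (0.845), and for *Tac1* *Zfp618* (0.879) and *Fastk* (0.861). They were *Plcb4* (0.863) and *Trappc9* (0.794) for *Trh*, *Srgap2* (0.937) and *Herc4* (0.828) for *Adcyap1*, *Nudcd2* (0.831) and *AU022252* (0.822) for *Pmch*, and a pair of *U6* copies (0.972 and 0.958) for *Crh*, a value that rests on the 2 libraries with *Crh* above 0. No other precursor was among the closest 2 of any precursor.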

How the data were processed

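Laser-captured ARC of 5 WT and 7 Homo mice was amplified (NuGEN) and sequenced on an Illumina HiSeq. The submitters' processing notes name TopHat2 2.0.8, Cufflinks 2.2.1 and GRCm38, and the authors deposited 1 table of FPKM values, with all 12 columns matched to mice by their labels. FPKM were not rescaled. No fragment counts were used, so depth was read only from steps between low values. limma 3.58.1 in R 4.3.3 (lmFit, eBayes with trend and robust variances, genotype only) was run on log2(FPKM + 1) for 14017 genes and was tested on simulated data. Exact permutations, correlations (100000 resamples) and rankings used scipy 1.17.1, and sequences came from GENCODE M21 transcripts, aligned with Biopython 1.88. The precursors and all lists were chosen with earlier results of these data known. Named genes were the 10 precursors, the 2 tested genes most correlated with each, and from each list up to 4 with the smallest p. *Mbp*, *Sim1*, *Lhx9*, *Nr5a1* and other markers given by level were picked with their values known. Alternatives covered pseudocount, filters, scaling, weights, library sets, each library left out and a replicate block.

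Lists with few or no tested differences were, as tested, higher and lower in Homo, the ventromedial (2, 1 and 1), dorsomedial (2, 2 and 0), paraventricular and supraoptic (5, 1 and 4), lateral hypothalamic (5, 2 and 3), suprachiasmatic (6, 4 and 2), mammillary (2, 2 and 0), thalamic (5, 3 and 2), striatal (3, 1 and 2), pituitary (3, 0 and 3), ARC (13, 10 and 3), neuronal (7, 5 and 2), astrocyte (6, 5 and 1), oligodendrocyte (5, 5 and 0), microglial (6, 6 and 0), endothelial (6, 4 and 2) and ependymal (5, 1 and 4) markers, none with an adjusted p below 0.05. A further oligodendrocyte marker is not reported here and was left out of its list after the values were known.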

Additional observations from a re-analysis of the deposited data

Results flagged for a closer look

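In 6 of the 19 sets of libraries examined (a precursor in 1 genotype) a library stood apart from the others of its genotype by its gap to the nearest one, taken on FPKM. Chance gives about 1 in 20 for values with a normal spread, which FPKM do not have. On log2(FPKM + 1), a scale chosen after seeing the data, 3 of the 6 stood apart, those of *Pmch* and *Crh*. WT 5 stood apart for *Oxt* (646 FPKM, next highest in WT 66.8) and for *Avp* (380.0 FPKM, next highest 17.5). WT 2 stood apart for *Trh* (10.3 FPKM, next highest 5.71). Homo 6 stood apart for *Pmch* (3.18 FPKM, next highest 0.757), and *Parpbp* on the other strand was highest in the same library. *Crh* was listed above 0 in WT 2 (0.250 FPKM) and Homo 7 (0.385 FPKM) alone, so in both genotypes the gap was the whole range by construction.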

How the results depend on the processing

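No precursor passed an adjusted p of 0.05 under any of the 24 other settings fitted with limma, where the smallest adjusted p was 0.624, and 172 of 189 refitted differences kept their sign. Those of *Avp*, *Nts* and *Tac1* kept it throughout. *Hcrt*, listed at 0 in every WT library, could not turn, and its refits are counted among the 172. *Oxt* turned with Homo 1 to 5 as the only Homo libraries and with the replicate block (both −0.042), and lay between −0.273 and 1.5 with each library left out. *Trh* turned with the library set in the model (−0.0874), in the libraries with more genes above 0 (−0.246) and without the libraries high in *Gh* (−0.00912, a setting chosen after seeing the data), and lay between −0.0437 and 0.318 with each library left out. *Penk* turned in the libraries with fewer genes above 0 (−0.11). *Adcyap1* turned at a pseudocount of 0.1 (−0.0165), with Homo 1 to 5 (−0.143), in the libraries with fewer genes above 0 (−0.00883), without those high in *Gh* (−0.013) and with the replicate block (−0.143), and lay between −0.109 and 0.182 with each library left out. The causes were not tested. Over all genes 1 passed, against 4 with Homo 1 to 5, 6 and 19 within the sets with fewer and more genes above 0, 2 without the libraries high in *Gh*, 2 with the replicate block and 1 to 3 with each library left out. The replicate numbers are no pairing, since same-numbered deviations correlated at −0.054 to 0.029 and none matched best, and the block changed no call of a precursor. The exact permutation test passed 1 precursor (*Nts*), against 0 with Homo 1 to 5, in the set with more genes above 0 (where 3 against 2 libraries cannot pass) and without those high in *Gh*, and 1 to 2 with each library left out, settings chosen after seeing the data. The count of pairs past adjustment stayed at 0 in every setting run, and that of marker relations lay between 0 and 1 with each library left out, where *Avp* with oligodendrocyte markers passed without Homo 2 or Homo 6. Depth limits *Hcrt*, *Pmch* and *Crh*, and *Nts* in WT 3, which lie near the worth of a few fragments.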
